A study of Mus musculus with 6 samples.

Results

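The mitochondrial ribosomal protein genes encode the proteins of the mitochondrial ribosome, or mitoribosome. They were taken as the protein-coding genes of the deposited table whose symbols start with Mrpl or Mrps followed by a number. This gave 78 of the 14774 genes in the table, and 4 further entries with such symbols, all processed pseudogenes, were left out. All 78 genes passed the filter on low counts and were among the 11939 genes tested, with between 172 and 7811 estimated counts per library. By the place of their product in the known structure, 51 belong to the large subunit and 26 to the small subunit, and Mrps36 is not part of the ribosome in that structure.

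The data were RNA sequencing counts of untreated wild-type MA-10 cells, which come from a Leydig cell tumor of the mouse (3 libraries), and untreated STARKO1 cells (3 libraries), in which CRISPR/Cas9 had deleted 2 nucleotides in exon 2 of Star. STARKO1 is 1 clone that was grown from a single sorted cell, so a property of that clone and a property of the loss of Star cannot be told apart. Star encodes the protein that brings cholesterol to the inner mitochondrial membrane for steroid synthesis. The labels do not say whether the 3 libraries of a cell line came from separate cultures, and p values therefore measure only the spread between these libraries.

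The mitoribosome translates the few mRNAs of the mitochondrial genome, which encode core subunits of the respiratory chain and of ATP synthase. Its ribosomal RNAs are transcribed from mitochondrial DNA, while its proteins are encoded in the nucleus, made in the cytosol and imported. Some of these proteins have counterparts in the bacterial ribosome, and others are found only in mitochondria. In Leydig cells, steroid synthesis begins in the mitochondrion with the removal of the cholesterol side chain by Cyp11a1, an enzyme that is itself imported.

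The targeted gene was examined first. Star was at 60.9, 109 and 61.4 CPM in the MA-10 libraries and at 2.06, 2.71 and 2.02 CPM in the STARKO1 libraries, always given in the order of replicates 1, 2 and 3. The unit CPM stands for counts scaled to the effective library size, which allows libraries to be compared. For Star, the log2 fold change (STARKO1 over MA-10, as throughout) was -5.09 (SE 0.33, edgeR adjusted p = 0.00121), and all STARKO1 libraries were below all MA-10 libraries. The 9 Leydig cell markers examined were all tested, and edgeR called Star and Hsd3b1, both lower (22.2%, against 9.04% of all tested genes). DESeq2 called 4 lower, Cyp11a1 and Hsd3b6 among them, and Cyp17a1 higher, beside 17.4% of all tested genes called lower and 11.0% higher. For 5 of the 9 the STARKO1 libraries lay below all MA-10 libraries and for 2 above them. Of 19 markers of macrophages, Sertoli cells, germ cells and endothelial cells, 7 were in the table, and edgeR called the endothelial marker Cdh5, at 34.0, 41.3 and 26.1 CPM in MA-10 and at 117, 123 and 121 CPM in STARKO1 libraries (edgeR adjusted p = 0.00596). Of the other endothelial markers, Pecam1 was at 0.17 to 0.86 CPM and was not called (edgeR adjusted p = 0.336). Kdr and Tek were not in the table. The Sertoli cell marker Rhox5 was at 314 to 568 CPM over the libraries and was not called (edgeR adjusted p = 0.153). The part of these markers in the results was not tested. Library totals lay between 14114349 and 19530054 counts, at which 3 counts corresponded to at most 0.264 CPM, below the lowest value of any mitochondrial ribosomal protein gene (9.85 CPM). MA-10 replicates 2 and 3 stood apart from the other 4 libraries: the noncoding 7SL RNA made up 14.4% and 6.63% of them and 1.81% to 2.37% of the others.

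Most mitochondrial ribosomal protein genes were lower in the mean of STARKO1 than of MA-10 cells, but few passed the edgeR test. The log2 fold change was negative for 63 of the 78 genes and positive for 15. Its median was -0.93, against -0.05 over all 11939 tested genes. In RNA from whole cultures, fewer cells that express a gene and less of its RNA per cell cannot be told apart. At an edgeR adjusted p under 0.05, which is meant by called where no other tool is named, 5 of the 78 genes (6.41%) were called, against 9.04% of all tested genes. Mrpl38, Mrps18a, Mrpl57 and Mrpl23, all of the large subunit, were lower, beside 4.74% of all tested genes called lower. Mrps6, of the small subunit, was higher, beside 4.30% of all tested genes called higher. At an unadjusted p under 0.05, 43 genes (55.1%) were lower and 5 (6.41%) higher, while 22.7% and 15.0% of all tested genes were so.

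The size of the differences and the small number of calls stood together with a wide spread among the MA-10 libraries. A log2 fold change of -1 or less was found for 37 genes (47.4%, against 14.3% of all tested genes), and 4 of these 37 were called. Summed over the 78 genes, the MA-10 libraries had 3367, 10780 and 7490 CPM, and the STARKO1 libraries had 3447, 3490 and 3601 CPM. MA-10 replicate 1 thus lay just under the STARKO1 libraries, while the other MA-10 libraries lay far above them. The size of this gap depends on the scaling, with factors of 1.16, 0.654 and 0.805 in MA-10 and 1.17 to 1.19 in STARKO1 libraries. As a share of unscaled counts, the 78 genes made up 0.389%, 0.705% and 0.603% in MA-10 and 0.410% to 0.422% in STARKO1 libraries. The large subunit genes summed to 2186, 6822 and 4720 CPM in the MA-10 libraries and to between 2176 and 2261 CPM in the STARKO1 libraries. For the small subunit genes the sums were 1151, 3757 and 2653 CPM and between 1237 and 1307 CPM. In both subunits MA-10 replicates 2 and 3 were the highest libraries, while MA-10 replicate 1 lay within the range of the STARKO1 libraries for the large subunit and below it for the small subunit.

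**Figure D1:**
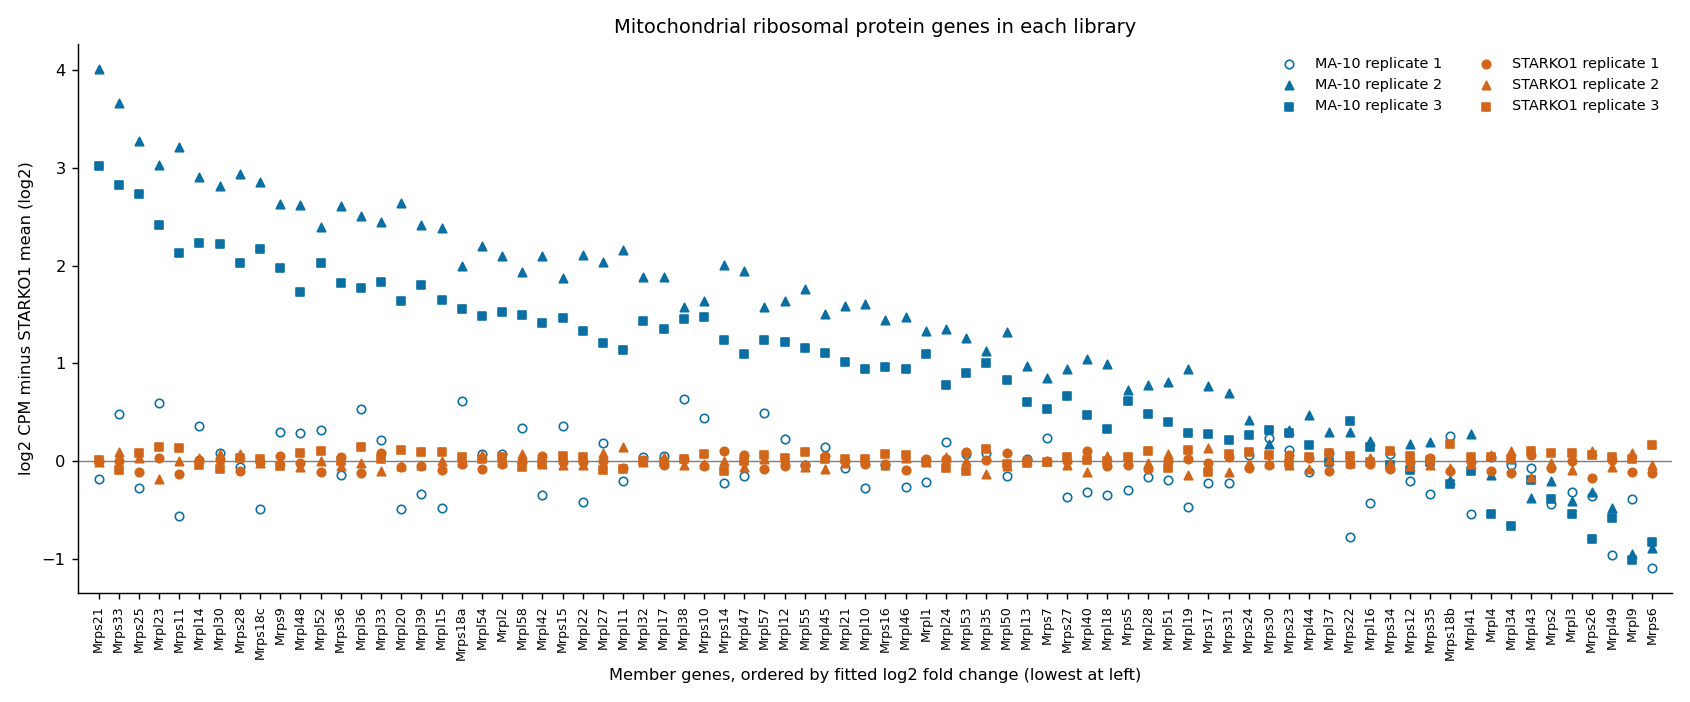
Level of each of the 78 genes in each library on the log2 CPM scale (prior count of 2), with the mean of the 3 STARKO1 libraries subtracted; genes are ordered by fitted log2 fold change. STARKO1 libraries (orange) lie within 0.18 of their mean, MA-10 replicate 1 (open circles) lies between -1.09 and 0.63, and MA-10 replicates 2 and 3 reach 4.01 and 3.02 at the left.

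Gene by gene, MA-10 replicate 1 was the lowest of the MA-10 libraries for 68 of the 78 genes and the highest for 6. Replicates 2 and 3 were both at least 2 times replicate 1 for 39 of the 78 genes, as they were for 12.5% of all tested genes. Replicate 2 was above replicate 3 for 73 genes. The level in MA-10 replicate 1 was within 1.5 times the STARKO1 mean for 72 genes, that in replicate 3 for 25 and that in replicate 2 for 19. Over all tested genes these shares were 77.6%, 47.0% and 39.9%, so replicate 1 was the MA-10 library closest to STARKO1 in general. The median SD of log2 CPM was 0.71 over the MA-10 libraries and 0.07 over the STARKO1 libraries, while it was 0.43 and 0.09 for all tested genes. The 3 STARKO1 libraries lay below all MA-10 libraries for 27 genes (34.6%, against 21.0% of all tested genes) and above them for 6 (7.69%, against 21.5%).

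When MA-10 replicate 1 was left out, 57 genes (73.1%) were called lower and 8 (10.3%) higher, and 7990 of 12167 genes tested were called in all, 31.7% lower and 34.0% higher. The median log2 fold change of the 78 genes was then -1.18, beside 0.06 for all genes tested. When MA-10 replicate 2 was left out, edgeR called 0 genes lower, with 20 lower at an unadjusted p under 0.05, and Mrps6 was still called higher, beside 2.28% of all genes tested called lower and 1.91% higher, and the median was -0.58. When MA-10 replicate 3 or any one STARKO1 library was left out, edgeR called 0 of the 78 genes. Of all genes tested, it called 1.49%, 0.730%, 1.11% and 0.760% in these 4 fits. In them, 22 to 26 of the 78 genes had an unadjusted p under 0.05. The share of all genes at an unadjusted p is not given for the fits with a library left out. The 20 and the 22 to 26 genes thus have no background beside them. DESeq2, run on all 6 libraries only, called 34 genes lower and 4 higher, the 5 genes called by edgeR among them, beside 17.4% of all tested genes called lower and 11.0% higher. The 13 genes called neither with 6 libraries nor without MA-10 replicate 1 were Mrps24, Mrps30, Mrps23, Mrpl44, Mrpl37, Mrps22, Mrpl16, Mrps34, Mrps12, Mrps35, Mrps18b, Mrpl41 and Mrpl34. The share of 7SL RNA had the same order in the MA-10 libraries as the summed level of these genes, and its part in the result was not tested.

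**Figure D2:**
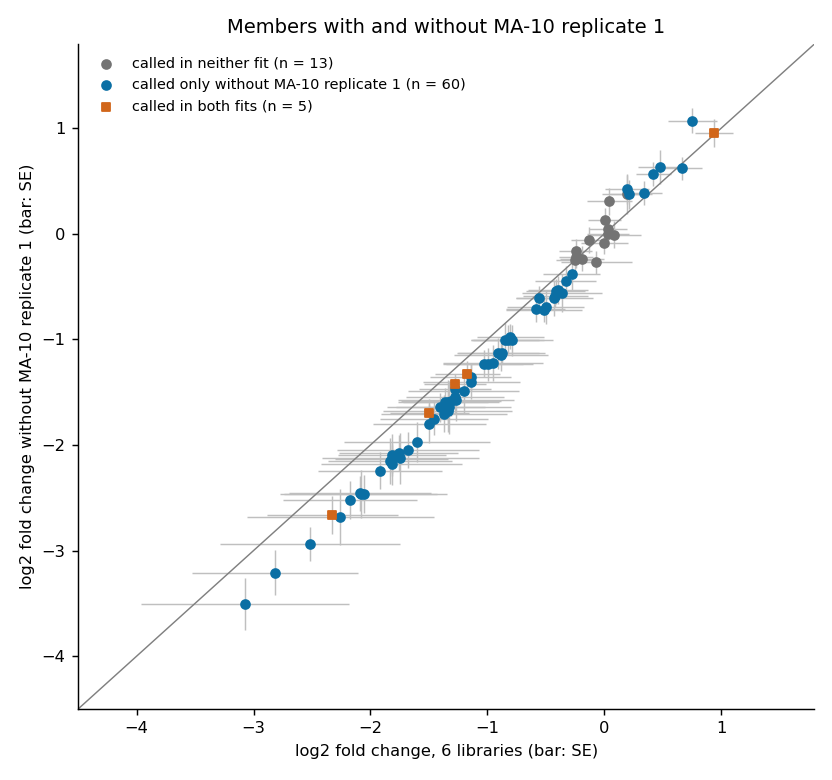
Fitted log2 fold change of the 78 genes with all 6 libraries (horizontal) and without MA-10 replicate 1 (vertical), with SE bars and the line of equality. The 5 genes called in both fits, the 60 called only without that library and the 13 called in neither fall along one band that is steeper than the line.

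Of the 4 large subunit genes called lower, Mrpl38 encodes a mitochondria-specific protein of the central protuberance, the crest of the large subunit. Mrpl38 (chromosome 11 of GRCm38, 116131817 to 116138869, minus strand) was at 166, 319 and 293 CPM in the MA-10 libraries and at 108, 104 and 108 CPM in the STARKO1 libraries. Even the lowest MA-10 library was above the highest STARKO1 library. On average it had 259 ± 81.9 CPM in MA-10 and 107 ± 2.62 CPM in STARKO1 libraries (SD, n = 3 each), a 2.43-fold lower level. The log2 fold change was -1.28 (SE 0.27, edgeR adjusted p = 0.0369), and the call held in 8 of 12 other fits. Of the 6 fits with a library left out, it held in 1, the fit without MA-10 replicate 1.

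Mrps18a is one of 3 genes related to the gene of bacterial protein S18, and its product sits in the large subunit although its name places it in the small one. Mrps18a (chromosome 17, 46110986 to 46128911, plus strand) was at 68.2, 178 and 131 CPM in MA-10 and at 43.5, 44.1 and 45.7 CPM in STARKO1 libraries, and it fell by 1.50 on the log2 scale (SE 0.34, edgeR adjusted p = 0.0430). Its paralog Mrps18c was at 9.85, 101 and 63.0 CPM in MA-10 and at 13.8, 13.7 and 14.1 CPM in STARKO1 libraries, so that MA-10 replicate 1 lay below all STARKO1 libraries. The log2 fold change of Mrps18c was -2.06 (SE 0.72, edgeR adjusted p = 0.0922, DESeq2 adjusted p = 0.0140). The third paralog, Mrps18b, was at 33.1, 24.2 and 23.5 CPM in MA-10 and at 25.9, 26.3 and 31.2 CPM in STARKO1 libraries, with a log2 fold change of 0.04 (SE 0.19, edgeR adjusted p = 0.879). The cell lines overlapped for Mrps18b and Mrps18c and did not for Mrps18a. Differences between the paralogs were not tested, and the values of Mrps18b were not whole in 5 libraries, as happens when reads are divided between genes.

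Mrpl57 and Mrpl23 were the other large subunit genes called lower. Mrpl57, which encodes a small mitochondria-specific protein (chromosome 14, 57826234 to 57829297, plus strand), was at 39.5, 83.6 and 66.4 CPM in MA-10 and at 26.4, 28.5 and 29.2 CPM in STARKO1 libraries. Its log2 fold change was -1.17 (SE 0.28, edgeR adjusted p = 0.0483). Mrpl23 encodes a protein with a bacterial counterpart at the mouth of the exit tunnel, through which the new chain leaves the ribosome. Mrpl23 (chromosome 7, 142532686 to 142540748, plus strand) was at 19.9, 108 and 70.7 CPM in MA-10 and at 13.4, 11.6 and 14.6 CPM in STARKO1 libraries, with a log2 fold change of -2.33 (SE 0.56, edgeR adjusted p = 0.0497). The libraries of the cell lines did not overlap for either gene. The values of Mrpl23 were not whole in any library and its pseudogene Mrpl23-ps1 had 19.8 to 60.6 counts per library, so the level of Mrpl23 is less certain than its spread shows. The calls of Mrps18a, Mrpl57 and Mrpl23 held, like that of Mrpl38, in the leave-one-out fit without MA-10 replicate 1 and in none of the other 5. Of the 12 other fits, the call of Mrps18a held in 8, that of Mrpl57 in 5 and that of Mrpl23 in 4.

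Mrps6, the counterpart of bacterial S6, was the only gene called higher by edgeR, while DESeq2 also called Mrpl3, Mrpl9 and Mrpl49 higher. Mrps6 (chromosome 16, 92058270 to 92112228, plus strand) was at 36.3, 41.7 and 43.8 CPM in MA-10 and at 71.1, 75.6 and 87.0 CPM in STARKO1 libraries. The MA-10 libraries were close together here, and the lowest STARKO1 library was well above them. The level rose 1.92-fold, from 40.6 ± 3.85 to 77.9 ± 8.20 CPM (SD, n = 3 each), a log2 fold change of 0.94 (SE 0.16, edgeR adjusted p = 0.0227). The call held without MA-10 replicate 1 and without MA-10 replicate 2, ended when any of the other 4 libraries was left out, and held in 10 of 12 other fits. The gene Slc5a3, a carrier of inositol, starts 52 bases from Mrps6 on the same strand and lies within it, and the values of Mrps6 were not whole in 5 libraries. Slc5a3 was at 72.2, 39.5 and 55.8 CPM in MA-10 and at 96.8, 95.5 and 97.5 CPM in STARKO1 libraries, a log2 fold change of 0.79 (SE 0.23, edgeR adjusted p = 0.0698). How far reads of one gene were given to the other was not tested.

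**Figure D3:**
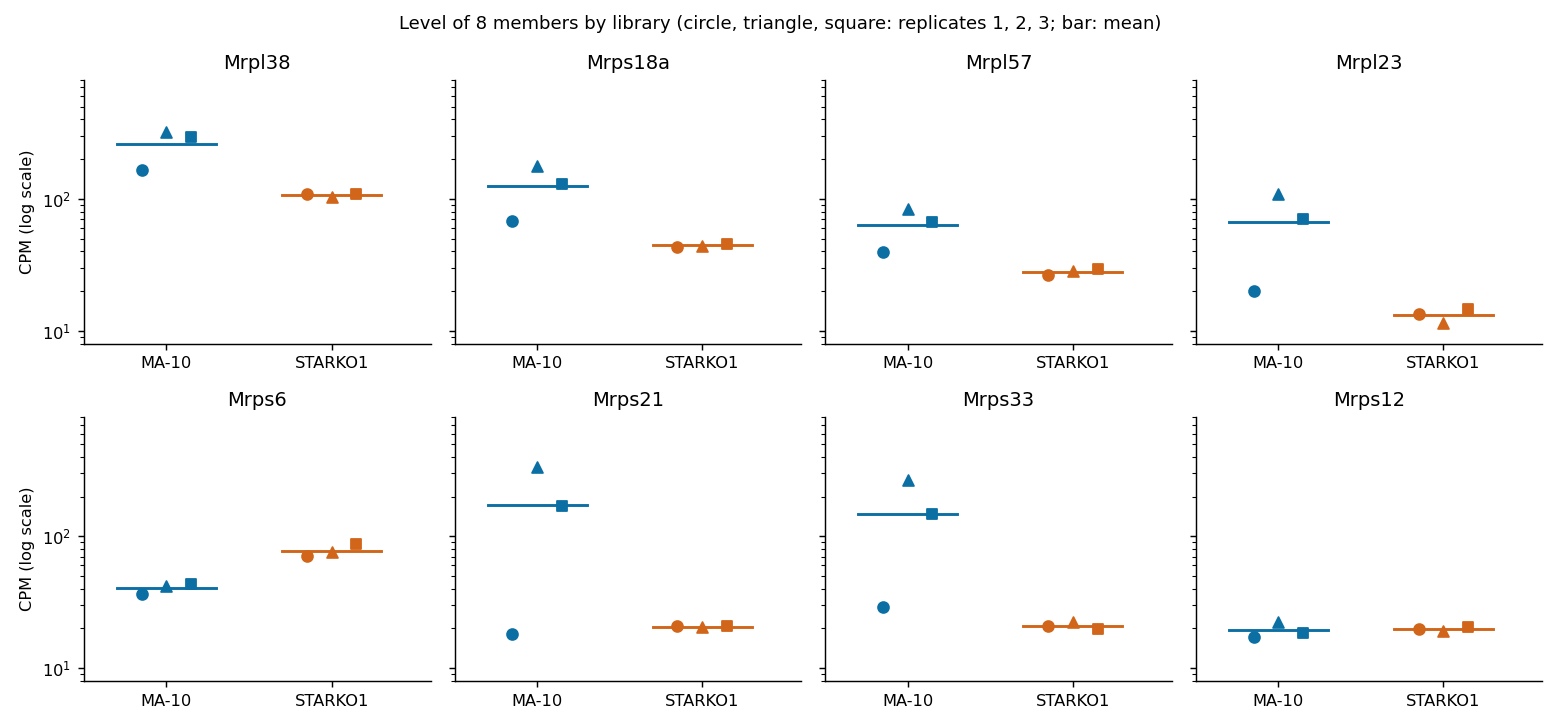
CPM on a log scale of the 5 called genes and of Mrps21, Mrps33 and Mrps12 in each library, with the mean of each cell line as a bar. In Mrps6 the MA-10 libraries lie between 36.3 and 43.8 CPM, whereas in Mrps21 they run from 18.2 to 334 CPM around STARKO1 libraries of 20.5 to 20.7 CPM.

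The lowest fold changes belonged to small subunit genes that edgeR did not call and DESeq2 called (DESeq2 adjusted p = 0.00106 for Mrps21, 0.000311 for Mrps33 and 0.00335 for Mrps25). Mrps21, the counterpart of bacterial S21 (chromosome 3, 95862634 to 95871520, minus strand), was at 18.2, 334 and 168 CPM in MA-10 and at 20.7, 20.5 and 20.7 CPM in STARKO1 libraries. MA-10 replicate 2 was 18.4 times and replicate 3 was 9.23 times MA-10 replicate 1, which itself lay below the STARKO1 libraries. The log2 fold change of Mrps21 was -3.07 (SE 0.89, edgeR adjusted p = 0.0676). Mrps33, which encodes a mitochondria-specific protein (chromosome 6, 39801804 to 39810989, minus strand), was at 29.2, 266 and 149 CPM in MA-10 and at 20.9, 22.3 and 19.7 CPM in STARKO1 libraries. Here all MA-10 libraries were above the STARKO1 libraries, and the log2 fold change was -2.82 (SE 0.71, edgeR adjusted p = 0.0542, and 0.0459 with gene length offsets). The values of Mrps33 were not whole in any library, as happens when reads are divided between genes, so its level is less certain. Mrps25, also mitochondria-specific (chromosome 6, 92169525 to 92184034, minus strand), was at 57.6, 677 and 464 CPM in MA-10 and at 64.3, 71.1 and 73.9 CPM in STARKO1 libraries. MA-10 replicate 1 was again below the STARKO1 libraries, and the log2 fold change was -2.52 (SE 0.77, edgeR adjusted p = 0.0747).

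The promoter sequences of Mrps21 and Mrps33 are shown because these genes had the lowest fold changes, and that of Mrps6 because it was the only gene edgeR called higher. They run 5′ to 3′ on the gene's strand from 250 bases before to 50 bases after the start (RefSeq, GRCm38.p6), and capitals mark the letters CCGGAAG of the ETS family, to which Gabpa belongs, on either strand.
Mrps21, chr3:95871465-95871764, minus strand: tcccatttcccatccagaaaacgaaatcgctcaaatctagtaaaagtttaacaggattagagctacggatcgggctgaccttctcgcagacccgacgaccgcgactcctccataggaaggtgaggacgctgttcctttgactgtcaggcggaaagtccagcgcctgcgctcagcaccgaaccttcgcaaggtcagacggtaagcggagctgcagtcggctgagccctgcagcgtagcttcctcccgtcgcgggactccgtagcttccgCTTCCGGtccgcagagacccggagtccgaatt
Mrps33, chr6:39810887-39811186, minus strand: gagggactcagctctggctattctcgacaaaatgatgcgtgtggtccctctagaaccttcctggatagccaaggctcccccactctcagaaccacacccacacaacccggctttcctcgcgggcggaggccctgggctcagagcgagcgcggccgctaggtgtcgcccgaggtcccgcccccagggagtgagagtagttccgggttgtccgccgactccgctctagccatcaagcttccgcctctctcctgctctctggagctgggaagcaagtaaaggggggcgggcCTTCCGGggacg
Mrps6, chr16:92058086-92058385, plus strand: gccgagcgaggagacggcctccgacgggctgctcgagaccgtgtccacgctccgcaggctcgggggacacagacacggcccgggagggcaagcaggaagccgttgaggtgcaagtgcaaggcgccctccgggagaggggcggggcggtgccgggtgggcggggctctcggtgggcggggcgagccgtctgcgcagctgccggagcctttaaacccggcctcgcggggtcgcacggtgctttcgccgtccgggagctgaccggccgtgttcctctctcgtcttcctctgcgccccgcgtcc
Mrps21 and Mrps33 each held the ETS letters once, close to the start, and Mrps6 held neither these nor the other letters searched.

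Further letters were searched on both strands in the promoters of the 69 genes for which a promoter was found, CCGGAAG for the ETS family, CGCATGCG for Nrf1 and AAGATGGCG for Yy1, factors known to act on nuclear genes of mitochondrial proteins. The spellings were settled after the shares of several had been seen, and none of the 3 contains another. The ETS letters stood in 26 of the 69 promoters (37.7%), in 21.4% of those of 9214 protein-coding genes of the table and in 9.93% of those of 27025 genes in all. The Nrf1 letters stood in 7 of the 69 (10.1%), against 4.66% and 2.07%, and the Yy1 letters in 8 (11.6%), against 3.83% and 1.64%. The median log2 fold change was -0.95 both for genes with the ETS letters and for those without. It was -1.28 with and -0.90 without the Nrf1 letters, and -1.09 with and -0.95 without the Yy1 letters. Of the factors themselves, Nrf1 had a log2 fold change of 0.08 (edgeR adjusted p = 0.748), Yy1 of -0.41 (edgeR adjusted p = 0.0903) and Gabpa of -1.37 (edgeR adjusted p = 0.0604). DESeq2 called Yy1 and Gabpa lower (DESeq2 adjusted p = 0.0150 and 0.00514) and did not call Nrf1 (DESeq2 adjusted p = 0.745). For Yy1 and Gabpa all STARKO1 libraries lay below all MA-10 libraries. Gabpa was at 114, 315 and 272 CPM in MA-10 and at 90.5, 93.8 and 87.0 CPM in STARKO1 libraries, with MA-10 replicate 1 nearest to the STARKO1 libraries. On the same list of factors, Gabpb1 had a log2 fold change of -0.17 (edgeR adjusted p = 0.424, DESeq2 adjusted p = 0.522). Pprc1 had one of 1.22 (edgeR adjusted p = 0.0623, DESeq2 adjusted p = 0.00681). Of the 8 tested genes on that list, 4 had a negative log2 fold change. The part of these factors in the fold changes was not tested.

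Many of these genes face another gene head to head. For 33 of the 78 (42.3%), a protein-coding gene starts on the opposite strand within 1000 bases, as for 10.8% of 22028 protein-coding genes in the annotation. That background includes genes outside the table, and the share among the genes of the table alone was not computed. For 30 of the 33 the neighbour was tested too, and the median log2 fold change was -0.69 over the 30 genes and -0.15 over their 30 neighbours. Of these neighbours 1 was called lower and 1 higher, beside 4.74% and 4.30% of all tested genes. Because Mrps11 and Mrpl46 are each other's neighbour, both stand among the 30 genes and among the 30 neighbours. Mrps11 and Mrpl46 on chromosome 7, whose products belong to the small and the large subunit, face each other on opposite strands. In GENCODE M21 their starts lie 412 bases apart and their first bases overlap, while in RefSeq the starts lie 42 bases apart and the genes do not overlap. Mrps11 was at 9.91, 137 and 64.9 CPM in MA-10 and at 13.5, 14.7 and 16.1 CPM in STARKO1 libraries. Mrpl46 was at 25.0, 83.9 and 58.0 CPM in MA-10 and at 28.2, 30.7 and 31.5 CPM in STARKO1 libraries. In both, MA-10 replicate 1 was below all STARKO1 libraries and the other MA-10 libraries were above them. The log2 fold change was -2.26 (SE 0.80, edgeR adjusted p = 0.0945, DESeq2 adjusted p = 0.0126) for Mrps11 and -0.88 (SE 0.40, edgeR adjusted p = 0.155) for Mrpl46. This pair was chosen after its values were seen, as the only one in which both genes belong to the set. The library kit keeps the strand, but the setting used for counting is not given in the sources used here, so reads of the overlap in GENCODE may stand under either gene. Their promoter windows, which overlap on opposite strands, are given with the Yy1 letters in capitals (RefSeq, GRCm38.p6).
Mrps11, chr7:78782881-78783180, plus strand: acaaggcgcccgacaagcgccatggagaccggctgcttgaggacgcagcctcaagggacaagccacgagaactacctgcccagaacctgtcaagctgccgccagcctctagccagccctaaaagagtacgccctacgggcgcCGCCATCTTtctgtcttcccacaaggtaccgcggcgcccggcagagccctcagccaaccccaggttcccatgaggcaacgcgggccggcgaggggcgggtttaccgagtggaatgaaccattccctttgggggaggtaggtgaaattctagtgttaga
Mrpl46, chr7:78783040-78783339, minus strand: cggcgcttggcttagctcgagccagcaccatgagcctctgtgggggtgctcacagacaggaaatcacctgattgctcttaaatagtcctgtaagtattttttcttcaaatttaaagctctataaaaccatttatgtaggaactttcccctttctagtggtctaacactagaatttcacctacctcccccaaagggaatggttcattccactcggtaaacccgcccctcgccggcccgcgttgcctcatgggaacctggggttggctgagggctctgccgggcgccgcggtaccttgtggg
The window of Mrps11 held the Yy1 letters once, and that of Mrpl46 held none of the letters searched.

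The remaining genes with high fold changes did not pass the edgeR test, and of those that follow DESeq2 called Mrpl9 and Mrpl49 (DESeq2 adjusted p = 0.0123 and 0.00885). Mrpl9, the counterpart of bacterial L9, was at 34.4, 23.3 and 22.3 CPM in MA-10 and at 41.8, 47.6 and 45.8 CPM in STARKO1 libraries, with a log2 fold change of 0.76 (SE 0.21, edgeR adjusted p = 0.0624). Mrpl49, a mitochondria-specific protein gene, was at 17.0, 23.9 and 22.2 CPM in MA-10 and at 33.5, 32.0 and 34.3 CPM in STARKO1 libraries, with a log2 fold change of 0.66 (SE 0.18, edgeR adjusted p = 0.0600). Mrps26, mitochondria-specific as well, had a log2 fold change of 0.48 (SE 0.19, edgeR adjusted p = 0.116). The STARKO1 libraries were above all MA-10 libraries for these genes, as they were for Mrps2, Mrpl3 and Mrps6.

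Genes chosen for the role of their product gave different values. Mrps12, whose product lies at the decoding site and is the counterpart of the bacterial protein in which streptomycin resistance arises, was at 17.2, 22.4 and 18.6 CPM in MA-10 and at 19.7, 19.2 and 20.6 CPM in STARKO1 libraries. The groups overlapped, and the log2 fold change was 0.03 (SE 0.16, edgeR adjusted p = 0.891). Mrpl12, whose product forms the stalk that receives translation factors, was at 118, 314 and 235 CPM in MA-10 and at 97.0, 101 and 103 CPM in STARKO1 libraries. The STARKO1 libraries were all lower for Mrpl12, with a log2 fold change of -1.14 (SE 0.34, edgeR adjusted p = 0.0727, DESeq2 adjusted p = 0.0157). Mrps30, a large subunit gene despite its name, was at 88.8, 85.1 and 94.1 CPM in MA-10 and at 73.2, 74.2 and 78.9 CPM in STARKO1 libraries, a small difference without overlap (log2 fold change -0.24, SE 0.14, edgeR adjusted p = 0.235). Mrps36, now known as a part of the 2-oxoglutarate dehydrogenase complex, was at 29.7, 201 and 116 CPM in MA-10 and at 33.8, 31.7 and 32.8 CPM in STARKO1 libraries. The log2 fold change of Mrps36 was -1.82 (SE 0.60, edgeR adjusted p = 0.0846, DESeq2 adjusted p = 0.0132). The pattern of the MA-10 libraries was thus also seen in a gene whose product is not in the ribosome.

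By subunit, edgeR called 4 of 51 large subunit genes lower and 0 higher, with 30 lower and 3 higher at an unadjusted p under 0.05 and 24 lower and 3 higher by DESeq2, and the median log2 fold change was -1.02. Of 26 small subunit genes, edgeR called 0 lower and 1 higher, with 12 lower and 2 higher at an unadjusted p under 0.05 and 9 lower and 1 higher by DESeq2, and the median was -0.47. The 48 genes with a bacterial counterpart had a median of -1.14, and edgeR called 2 lower and 1 higher. At an unadjusted p under 0.05, 30 of them were lower and 3 higher, and DESeq2 called 22 lower and 3 higher. The 30 mitochondria-specific genes had a median of -0.65, and edgeR called 2 lower and 0 higher, with 13 lower and 2 higher at an unadjusted p under 0.05 and 12 lower and 1 higher by DESeq2. The lowest median, -1.14, was that of large subunit genes with a bacterial counterpart (31 genes), and the highest, -0.24, that of mitochondria-specific small subunit genes (9 genes). The edgeR calls were 7.84% of the large and 3.85% of the small subunit genes, against 9.04% of all tested genes (4.74% lower and 4.30% higher). At an unadjusted p under 0.05, 22.7% of all tested genes were lower and 15.0% higher, and DESeq2 called 17.4% lower and 11.0% higher. Differences between these subsets were not tested.

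The genes were compared in level only per length, as the mean CPM of the 6 libraries per 1000 bases of the spliced transcript. The 5 highest by this mean were Mrpl52 (226), Mrps21 (199), Mrpl42 (178), Mrpl30 (169) and Mrpl20 (160), and the median over the 78 genes was 37.8. The 5 lowest were Mrpl1 (9.55), Mrps17 (8.78), Mrpl35 (7.85), Mrpl19 (6.52) and Mrpl47 (5.72). The order differed between the cell lines. In MA-10 cells all of these 5 were the highest, led by Mrps21 (356) and Mrpl52 (352), and 4 of the 5 lowest were among the lowest there. In STARKO1 cells 2 of the 5, Mrpl52 (99.7) and Mrpl42 (99.3), were among the 5 highest, behind Mrpl18 (121) and Mrpl13 (120), while Mrps21 was at 42.3, and 3 of the 5 lowest were among the lowest. All 5 highest genes by the mean had annotated transcripts of at most 969 bases and all 5 lowest of at least 3364 bases. Per 1000 bases of coding sequence, 2 of the 5 highest and 1 of the 5 lowest remained among the 5 at their end, so the order depended on the length used. The log2 fold changes of the 5 highest lay between -3.07 and -1.37 and those of the 5 lowest between -1.20 and -0.33, and edgeR called none of these 10 genes. DESeq2 called all 5 highest (DESeq2 adjusted p from 0.00106 to 0.0468) and 0 of the 5 lowest, and with gene length offsets edgeR called Mrpl52 (edgeR adjusted p = 0.0499). The mean used for the ranking includes the MA-10 libraries, so genes high in MA-10 replicates 2 and 3 rank higher. The fold changes and calls of the 5 highest are therefore partly set by the ranking and are no separate result. In every one of the 10, MA-10 replicate 2 was above all STARKO1 libraries, as it was for 67 of the 78 genes.

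The position and structure of the genes were looked at beside the fold changes. The 78 genes lay on 17 chromosomes, with 11 on chromosome 11, and their annotated transcripts had a median length of 1302 bases, against 2939 bases for the protein-coding genes of the table. Their median GC content was 50.4%, against 50.5%. Across the 78 genes, which are not independent replicates and share the same 6 libraries, the log2 fold change had a Spearman correlation of 0.28 with transcript length and 0.03 with GC content, and 0.21 and 0.19 across all tested genes with an annotated length. The 25 genes with transcripts under 1000 bases had a median log2 fold change of -1.50, the 28 genes of 1000 to 2000 bases of -0.51 and the 25 genes over 2000 bases of -0.91. For all tested genes in the same ranges the medians were -0.55, -0.28 and 0.04. With offsets that remove a trend with length in each library, the median of the 78 genes was -0.77, beside -0.08 for all tested genes, and 9 genes were called lower and 3 higher, beside 7.64% and 5.65% of all tested genes.

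**Figure D4:**
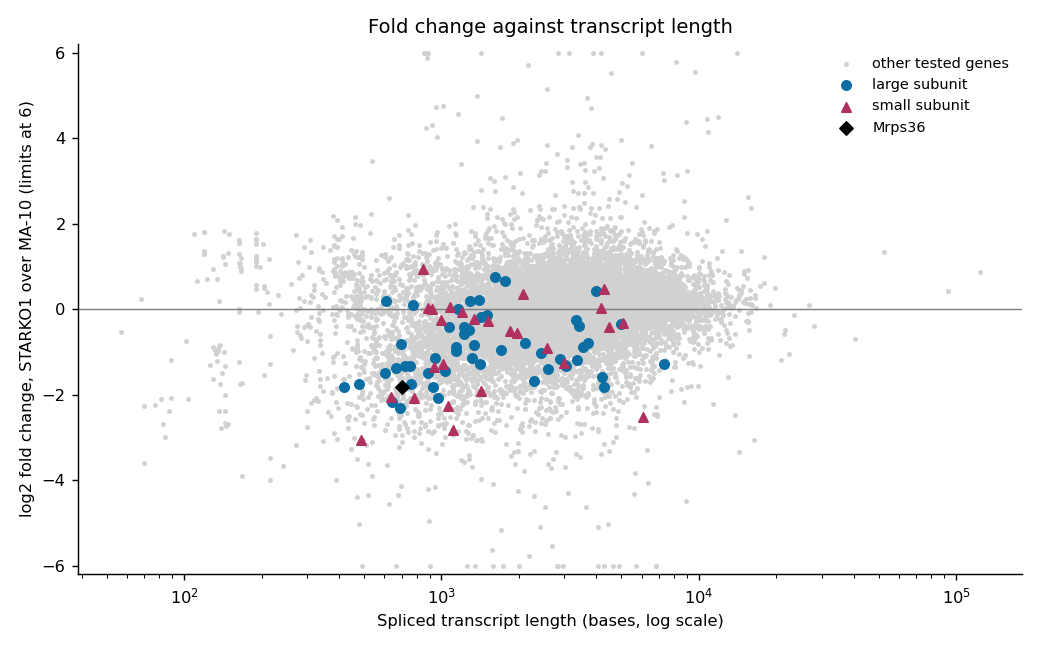
Fitted log2 fold change of the 78 genes against the length of the spliced transcript (log scale), by subunit, over all other tested genes in grey (28 genes beyond 6 are drawn at the limit). The genes lie mostly below 0 at every length, from 418 to 7300 bases, and Mrps21 lies lowest.

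The other genes of mitochondrial translation were described from lists. The mitoribosome also holds proteins whose symbols do not start with Mrp, and of the 5 examined edgeR called only Ptcd3, while DESeq2 called Ptcd3 and Dap3 higher and Aurkaip1 lower. Of all tested genes, edgeR called 9.04%, and DESeq2 called 17.4% lower and 11.0% higher. Ptcd3, a pentatricopeptide repeat protein of the small subunit, was between 18.5 and 23.8 CPM in MA-10 and at 37.5, 37.8 and 39.6 CPM in STARKO1 libraries, and it rose by 0.88 on the log2 scale (SE 0.16, edgeR adjusted p = 0.0254). Dap3, a GTP-binding protein of the small subunit, also lay without overlap above MA-10, with a log2 fold change of 0.62 (edgeR adjusted p = 0.0681). Aurkaip1 was at 87.3, 464 and 353 CPM in MA-10 and at 87.9, 93.4 and 106 CPM in STARKO1 libraries, and Chchd1 and Gadd45gip1 showed the same order of MA-10 libraries. The log2 fold change was -1.65 for Aurkaip1, -1.10 for Chchd1 and -0.40 for Gadd45gip1, and edgeR called none of these 3 (edgeR adjusted p = 0.0853, 0.128 and 0.307).

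The ribosomal RNAs of the mitoribosome, mt-Rnr1 and mt-Rnr2, lay without overlap below MA-10, and neither was called by edgeR. mt-Rnr1 was at 21017, 42404 and 39199 CPM in MA-10 and at 20669, 19483 and 17743 CPM in STARKO1 libraries, a log2 fold change of -0.83 (edgeR adjusted p = 0.193, DESeq2 adjusted p = 0.0396). mt-Rnr2 had a log2 fold change of -0.50 (edgeR adjusted p = 0.382). The kit removes ribosomal cDNA, so these levels are what was left after removal. The transfer RNA mt-Tv, which has a structural place in the large subunit, did not pass the filter on low counts.

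Among 28 genes of mitoribosome assembly and ribosomal RNA modification, edgeR called 1 lower and 3 higher and DESeq2 2 lower and 6 higher, and the median log2 fold change was 0.15. The edgeR calls were 14.3% of the list, against 9.04% of all tested genes. DESeq2 called 17.4% of all tested genes lower and 11.0% higher. Mtg1, a GTPase of large subunit assembly, fell by 1.25 on the log2 scale (edgeR adjusted p = 0.0389), while Mtg2, a related GTPase, rose by 1.41 (edgeR adjusted p = 0.0430). Noa1, a GTPase of small subunit assembly, rose by 0.72 and Trub2, a pseudouridine synthase, by 0.82 (edgeR adjusted p = 0.0484 and 0.0406). Among 18 translation factors and membrane anchors, Mrrf, the recycling factor, was the only gene called by edgeR, at 34.4, 61.8 and 47.6 CPM in MA-10 and between 18.5 and 22.5 CPM in STARKO1 libraries (log2 fold change -1.23, edgeR adjusted p = 0.0308), and the median of the list was -0.23. DESeq2 called 3 genes of this list lower, Mrrf among them, and 2 higher. The edgeR call was 5.56% of this list, again beside 9.04% of all tested genes.

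Of 20 genes of mitochondrial aminoacyl-tRNA synthetases and their partners, Cars2 rose by 1.09 and Gatc fell by 0.85 on the log2 scale (edgeR adjusted p = 0.0379 and 0.0258), while DESeq2 called 2 lower and 3 higher, and the median was 0.17. Of 10 genes of mitochondrial transcription and genome maintenance and 8 transcription factors of nuclear genes for mitochondrial proteins, edgeR called 0, with 5 and 3 at an unadjusted p under 0.05 and 2 and 3 by DESeq2, and the medians were 0.35 and 0.01. At an unadjusted p under 0.05, 22.7% of all tested genes were lower and 15.0% higher. The medians of these 5 lists lay nearer to that of all tested genes than the median of the mitochondrial ribosomal protein genes did. The 80 tested genes of the cytosolic ribosome had a median of -1.03, with 0 called by edgeR. At an unadjusted p under 0.05, 58 were lower and 1 higher, beside 22.7% and 15.0% of all tested genes. DESeq2 called 49 lower and 1 higher, beside 17.4% and 11.0% of all tested genes. The share of all counts held by the cytosolic genes was 4.61%, 8.62% and 7.78% in the MA-10 libraries and 4.23% to 4.41% in the STARKO1 libraries. For the mitochondrial ribosomal protein genes the share was 0.389%, 0.705% and 0.603% in the MA-10 libraries and 0.410% to 0.422% in the STARKO1 libraries. MA-10 replicate 1 thus lay above the STARKO1 libraries for the cytosolic and below them for the mitochondrial genes, and MA-10 replicate 2 had the highest share of both.

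**Figure D5:**
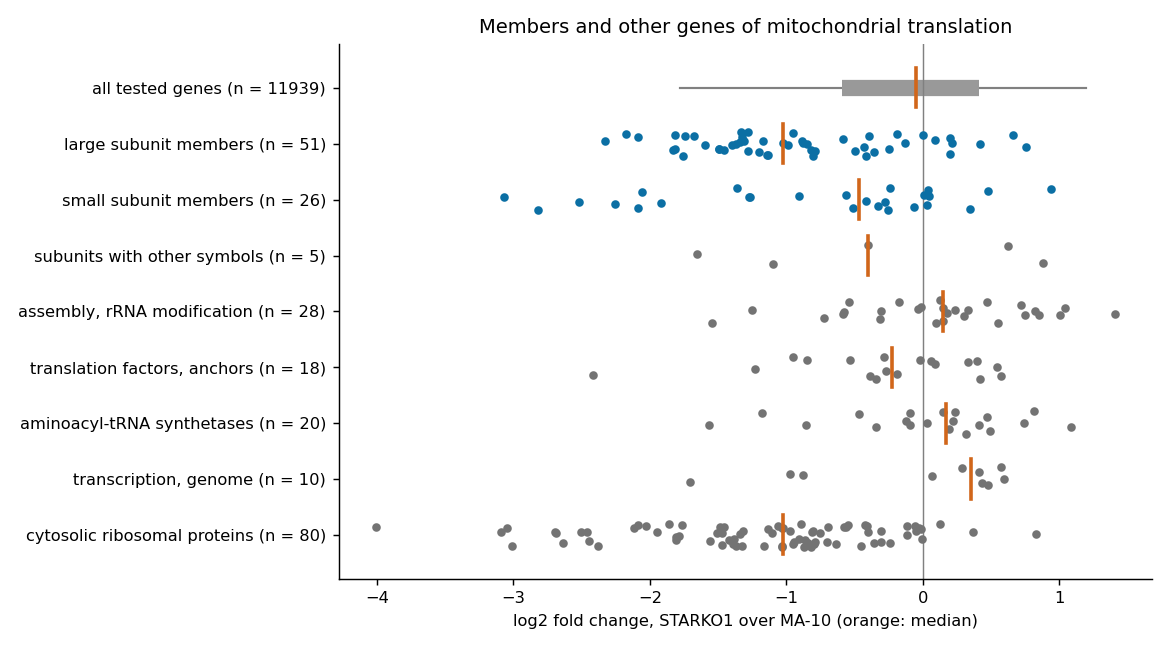
Fitted log2 fold changes of the large and small subunit genes, of the other lists of mitochondrial translation and of the cytosolic ribosomal protein genes, with the median of each in orange; for all tested genes the grey bar spans the percentiles 25 to 75 and the line 5 to 95. The medians of the large subunit genes (-1.02) and of the cytosolic ribosomal protein genes (-1.03) lie left of the bar, and those of the assembly genes (0.15) and the synthetases (0.17) lie within it.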

How the data were processed

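Total RNA of MA-10 and STARKO1 cells was sequenced after library preparation with a stranded kit, 3 libraries per cell line. The authors deposited estimated counts per gene and library, not normalized, with coordinates of mouse build mm10 (GRCm38); per the submitters' processing notes STAR 2.6.1d and Partek were used, and the counting settings are not given in the sources used here. All 6 sample columns were matched by name. The estimated counts were rounded and tested with edgeR 4.0.16 under R 4.3.3 (filterByExpr, TMM, quasi-likelihood test without a block, Benjamini-Hochberg adjustment over all 11939 tested genes, threshold 0.05). The SE is the log2 fold change divided by the square root of F. CPM use the TMM-scaled library size. Counts leave little sampling error at these totals, so the spread between replicates limits precision (common biological coefficient of variation 0.291).

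The members and the gene lists were chosen with earlier results of these data known. Named genes are the called members, the 5 highest and 5 lowest in level per length, the 4 highest and 4 lowest in log2 fold change, 7 chosen for their role, the mitoribosome subunits with other symbols, called genes of the lists and Star; any others were chosen after their values were seen. Lengths, neighbours and GC content came from GENCODE M21 (all 78 members matched), and promoters from RefSeq. Alternatives were DESeq2 1.42.0, other scalings, filters and thresholds, a replicate block, length and GC offsets, thinned counts, another member list and leaving out each library. The scripts were tested on simulated counts. Figures and tables were made with Python, pandas, scipy and matplotlib.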

Additional observations from a re-analysis of the deposited data

How the results depend on the processing

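With 6 libraries and edgeR, 4 members were called lower and 1 higher. The number called lower was 34 with DESeq2 1.42.0, 9 with gene length offsets, 2 with upper quartile scaling, without a filter on low counts and with at least 10 counts in every library, 0 with library size alone, 0 at an adjusted p under 0.01 and 32 at one under 0.10. The number called higher was 4 with DESeq2, 3 with gene length offsets, 2 with GC content offsets, with upper quartile scaling and with library size alone, 2 with the subunits of other symbols added and Mrps36 removed, 0 under 0.01 and 4 under 0.10. Of all 11939 tested genes, edgeR called 1079 in either direction and DESeq2 3395. The edgeR number was 1586 with gene length offsets, 1288 with GC content offsets, 829 with upper quartile scaling and 330 with library size alone. It was 947 of 14774 genes without a filter on low counts and 695 of 10785 with at least 10 counts in every library. No number for all genes is given here under 0.01 or 0.10. Same-numbered libraries did not deviate together (correlations of their deviations from -0.02 to 0.05), so the numbers were not taken to pair them. With the replicate block, 0 members were called lower and 0 higher, likewise with GC content offsets added, and with gene length offsets and the replicate block 0 were called lower. In these 3 fits edgeR called few genes of any kind, 234, 365 and 239 of the 11939 tested. In the fits where edgeR called 0 members in both directions, 22 to 35 had an unadjusted p under 0.05. The share of all tested genes at that unadjusted p is not given for these fits. Leaving out each library gave 0 to 57 called lower, 0 to 8 called higher and medians from -1.18 to -0.58, with the highest counts and the lowest median without MA-10 replicate 1, and 0 called in both directions without MA-10 replicate 3 or any one STARKO1 library. Without MA-10 replicate 2, 0 were called lower and 1 higher, with the highest median. All 38 members called by DESeq2 were among the 65 called without MA-10 replicate 1. The median log2 fold change of -0.93 was -0.34 with library size alone, which moved the median of all genes from -0.05 to 0.38, and with upper quartile scaling the median of all genes was 0.10. MA-10 replicate 1 alone against STARKO1 gave 0.073 for the members, a value with no test. With library size alone, Mrps17 had a log2 fold change of 0.20, Mrpl19 of 0.21 and Mrps30 of 0.19. With GC content offsets, Mrps18b had -0.025 and Mrps12 -0.15, and with the replicate block added -0.019 and -0.13. Leaving out each library gave -0.046 to 0.31 for Mrps18b and -0.56 to 0.049 for Mrpl19. None of these 5 genes was called with 6 libraries, and the other 21 members named by rule kept their direction in every fit run. The cause of these shifts was not tested.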
